A study of Mus musculus with 6 samples.

Results

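Heterotrimeric G proteins of the Gi class are named after their alpha subunits, and 5 of these genes were followed here in the brain of mice that lack Gb5. They are Gnai1, Gnai2 and Gnai3, which encode the Gi alpha subunits, Gnao1, which encodes Go alpha, and Gnaz, which encodes Gz alpha. Every probe set of the array annotated to exactly 1 of these gene symbols was taken. This gave 12 probe sets, 3 each for Gnai1 and Gnao1 and 2 each for Gnai2, Gnai3 and Gnaz, out of 45037 probe sets and 34945 with 1 annotated gene.

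Brains were taken without the cerebellum, and total RNA of each sample was hybridised to 1 Affymetrix expression array. The Gb5ko group held 3 samples of Gb5-deficient mice (replicates 1, 2 and 3), and the Gb5wt group 3 samples of wild-type mice (replicates 4, 5 and 6). The series design calls the samples biological replicates. Per the labels, cohorts were littermates of matching age and sex, and no treatment is listed. Strain, age, sex and the construction of the Gb5 allele are not given in the sources used here.

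A G alpha subunit is active while it holds GTP and switches itself off by hydrolysing it. Gi alpha subunits inhibit adenylyl cyclase. Go alpha is the abundant G protein of neurons, and Gz alpha is a neuron-rich relative that resists pertussis toxin and hydrolyses GTP slowly by itself. RGS proteins speed up that hydrolysis, and the R7 family of RGS proteins does so for Gi and Go only as stable complexes with Gb5, the product of Gnb5. The comparison asks whether transcripts of these substrates differ when Gb5 is missing.

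The targeted gene checked the genotype labels. Its brighter probe set read 3.67, 3.00 and 3.56 on the log2 scale in the Gb5ko arrays, against 8.79, 8.98 and 9.30 in the Gb5wt arrays. It fell by 5.62 ± 0.193 (SE; limma adjusted p = 4.48e-06). In Gb5ko arrays its signal averaged percentile 18.8, where background may make up the reading, so the difference may be understated. The dimmer Gnb5 probe set, 1447630_x_at, differed by -0.98 ± 0.19 and did not pass (limma adjusted p = 0.173). Some arrays stood apart from their group. On principal component 1 (40.3% of variance) Gb5ko replicate 1 lay at -49.8 and Gb5wt replicate 4 at 32.3, while the other 4 arrays lay between -8.47 and 16.4. The X-inactivation transcript Xist read 10.65, 8.31 and 10.62 in Gb5ko arrays, against 4.96, 10.81 and 10.70 in Gb5wt arrays. The Y-linked gene Eif2s3y read 2.96, 11.28 and 6.97 in Gb5ko arrays, against 11.26, 6.05 and 4.05 in Gb5wt arrays. Gb5ko replicate 2 was thus high for both, Gb5ko replicate 1 was high for Xist alone and Gb5wt replicate 4 for Eif2s3y alone, so these genes varied within each group although the labels give matching sex. How many animals stand behind an array is not settled by these values, and n below counts arrays. With Eif2s3y as a covariate, a fit chosen after the data were seen, 0 members passed in limma. In Gb5ko replicate 3 the pituitary hormone gene Gh read 10.62, against 6.21 or less in each other array. All 6 neuronal markers, among them Snap25, Syt1 and Gad1, lay at or above percentile 94.8 of all probe sets, and the cerebellar granule cell marker Gabra6 lay at 3.48 in Gb5ko and 3.18 in Gb5wt arrays. The other genes of the cerebellar list read higher, and the source of their signal was not tested. In Gb5ko and Gb5wt arrays Cbln3 lay at 4.53 and 4.11, Pcp2 at 8.70 and 8.58, and Calb1 at 12.15 and 12.24. Of the marker lists, 3 of 4 cerebellar, 4 of 4 pituitary, 2 of 5 astrocyte, 0 of 4 oligodendrocyte and 0 of 2 blood genes had positive differences, and 0 of these genes passed. Over all genes, each read by its brightest probe set, 10891 of 18193 differences were positive. Summed linear signal of the astrocyte markers ran from 14966 to 16908 in Gb5ko and from 18827 to 19710 in Gb5wt arrays, and that of the oligodendrocyte markers from 11772 to 14647 in Gb5ko and from 14943 to 16474 in Gb5wt arrays. Both sums were lower in every Gb5ko array. Gja1, an astrocyte gap junction gene, differed by -0.45 and Cldn11, a myelin gene, by -0.59, the largest in size of their lists. In the astrocyte list Aldh1l1 (0.35) and Gfap (0.01) had positive differences. The part of these cells in the member results was not tested.

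Across the members, 0 of 12 probe sets passed the limma threshold, an adjusted p under 0.05 over all 45037 probe sets, where 12 probe sets or 0.0266% passed. Adjusted p values of the members ran from 0.236 to 0.94. At an unadjusted p under 0.05 there were 3 of 12, with 2 positive differences and 1 negative, against 14.4% of all probe sets (8.09% positive and 6.33% negative). The groups did not overlap at 4 of 12, with the Gb5ko arrays above at 2 and below at 2, against 21.5% of all probe sets (12.5% above and 8.95% below). Differences (Gb5ko minus Gb5wt) ran from -0.56 to 0.47, with 8 positive and 4 negative. Their median was 0.13, beside 0.03 over all probe sets. The median size of the difference regardless of sign was 0.17 for the members and 0.13 for all probe sets.

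**Figure D1:**
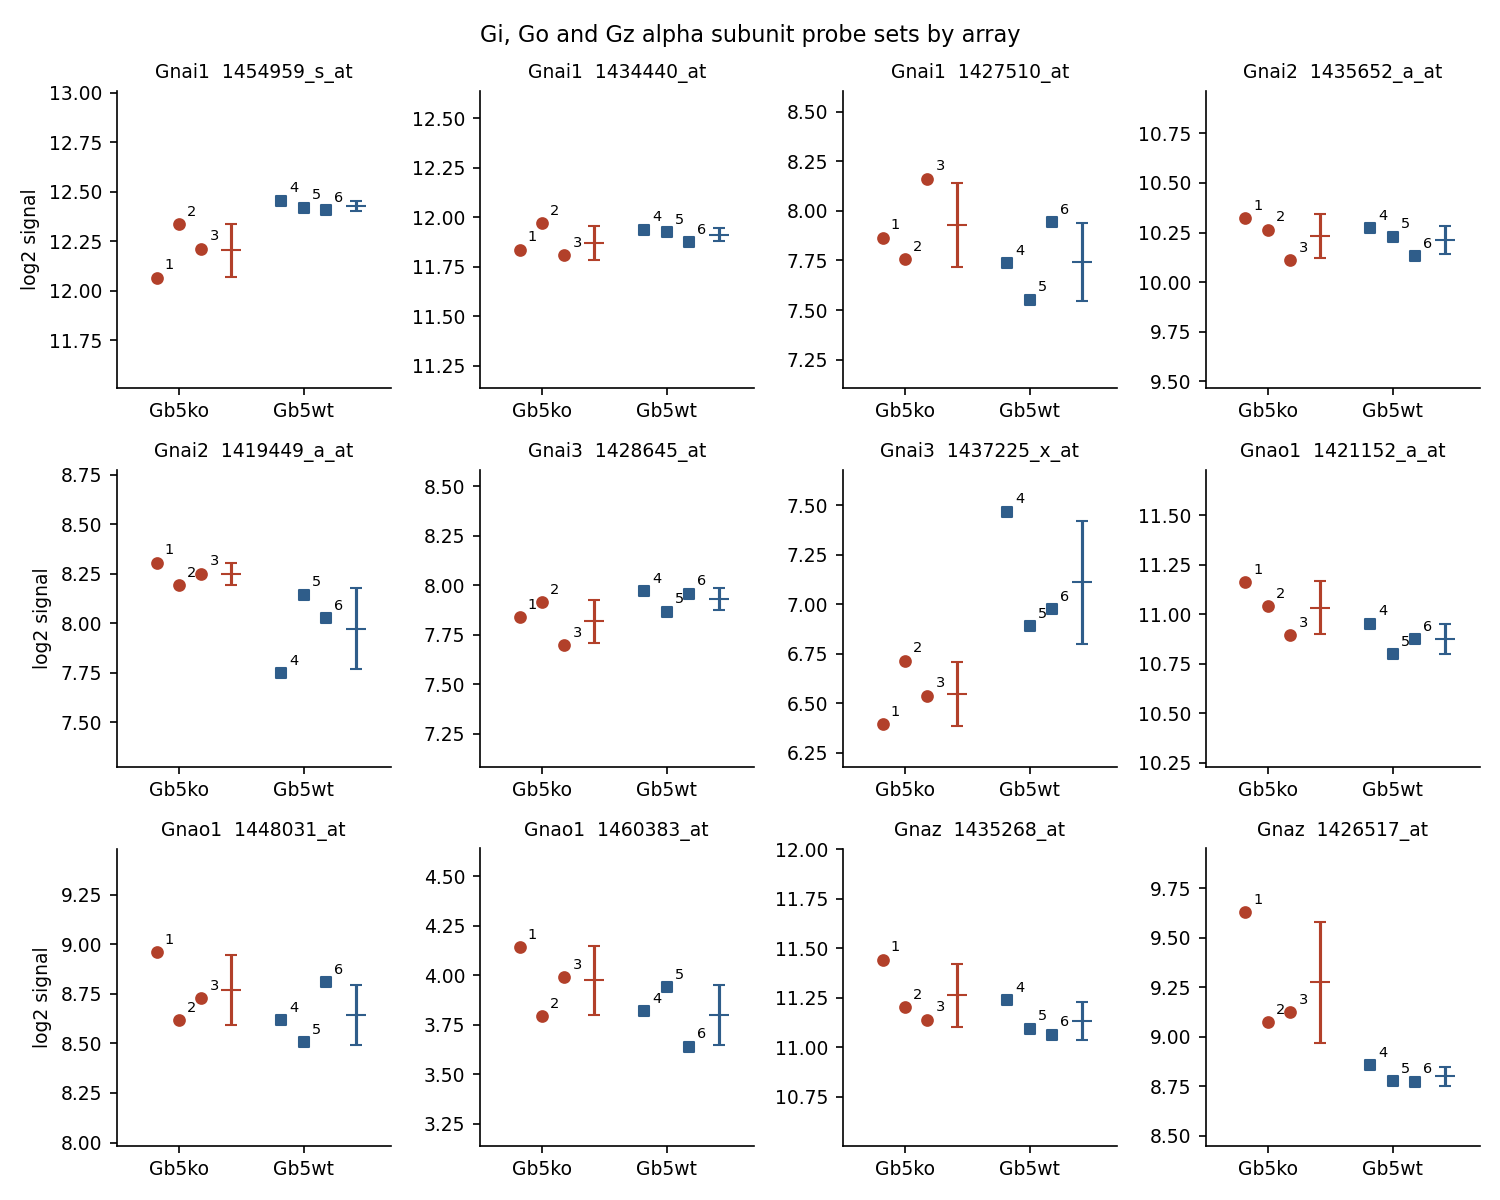
Log2 signal (y axis, a span of 1.5 in every panel) of the 12 probe sets in the 3 Gb5ko arrays (circles) and the 3 Gb5wt arrays (squares), numbered by replicate, with the mean and SD beside them. The groups are separate at 4 probe sets, and Gb5ko replicate 1 is the highest array at 7 of the 12.

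Signal on these arrays depends on the probes as well as on the transcript, so the 5 genes could not be ranked by it. The 3 probe sets of Gnao1 spanned 7.07 on the log2 scale for the same gene, and those of Gnai1 spanned 4.48. Mean signal of the brightest probe set lay at percentile 98.5 of all probe sets for Gnai1, 95.3 for Gnaz, 94.2 for Gnao1, 90.2 for Gnai2 and 71.0 for Gnai3.

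Gnao1, the gene of the main neuronal substrate of R7 complexes, showed small positive differences at all 3 of its probe sets, none of which passed. The brightest (1421152_a_at; the suffix a marks probes shared by transcripts of a gene) read 11.16, 11.04 and 10.89 in Gb5ko arrays, against 10.95, 10.80 and 10.87 in Gb5wt arrays. Gb5ko replicates 1 and 2 lay above every Gb5wt array, and replicate 3 lay among them. Means were 11.03 ± 0.134 in Gb5ko and 10.88 ± 0.077 in Gb5wt arrays (SD, n = 3 each), and the difference was 0.16 ± 0.109 (SE; limma adjusted p = 0.529). Probe set 1448031_at ran from 8.62 to 8.96 in Gb5ko arrays and from 8.51 to 8.81 in Gb5wt arrays, a difference of 0.12 ± 0.128. The third, 1460383_at, was dim at percentile 27.0, ran from 3.79 to 4.14 in Gb5ko and from 3.64 to 3.94 in Gb5wt arrays, and differed by 0.18 ± 0.127. Without Gb5ko replicate 1 the 3 differences were 0.09, 0.03 and 0.09. Dim probe sets such as the third can understate a difference.

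Gnaz encodes the alpha subunit on which RGS proteins of the RZ family are known to act, and its probe sets gave differences of unequal size. The brighter, 1435268_at, read 11.44, 11.20 and 11.14 in Gb5ko arrays, against 11.24, 11.09 and 11.06 in Gb5wt arrays. The groups overlapped, and the difference was 0.13 ± 0.116 (limma adjusted p = 0.63), and 0.04 without Gb5ko replicate 1. At 1426517_at, the readings were 9.63, 9.08 and 9.13 in Gb5ko arrays, against 8.86, 8.77 and 8.77 in Gb5wt arrays. Every Gb5ko array lay above every Gb5wt array there, with replicate 1 far above the other two. Means were 9.28 ± 0.305 and 8.80 ± 0.048 for Gb5ko and Gb5wt (SD, n = 3 each). Its difference of 0.47 ± 0.15, or 1.39-fold (95% interval 1.10 to 1.76), was the largest positive one of the 12 and did not pass (unadjusted p = 0.0113, limma adjusted p = 0.254). Without Gb5ko replicate 1 it was 0.30 ± 0.099 (adjusted p = 0.433). Of 6 neuronal markers, 3 had positive differences and 3 negative. The synaptic gene Snap25 and the GABA synthesis gene Gad1 differed by -0.33 each, with every Gb5ko array below the Gb5wt arrays (unadjusted p = 0.0117 and 0.0212, limma adjusted p = 0.255 and 0.279). Slc17a7 and Stmn2 differed by 0.27 and 0.17, with every Gb5ko array above the Gb5wt arrays (limma adjusted p = 0.402 and 0.466). Syt1 differed by -0.003 and Rbfox3 by 0.001. The summed linear signal of the neuronal markers ran from 26225 to 27748 in Gb5ko and from 27068 to 28902 in Gb5wt arrays, and its part in the Gnaz result was not tested.

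Gnai1 gave both signs. Its brightest probe set, 1454959_s_at, read 12.07, 12.34 and 12.21 in Gb5ko arrays, against 12.46, 12.42 and 12.41 in Gb5wt arrays. All 3 Gb5ko arrays lay below the Gb5wt arrays, which were close to one another. Means were 12.20 ± 0.135 in Gb5ko and 12.43 ± 0.025 in Gb5wt arrays (SD, n = 3 each), a difference of -0.22 ± 0.105 (limma adjusted p = 0.369). Probe set 1434440_at, listed under the same target sequence in the platform annotation, ran from 11.81 to 11.97 in Gb5ko arrays and from 11.87 to 11.94 in Gb5wt arrays, a difference of -0.04 ± 0.098. The suffix s of the brightest marks probes that can match transcripts of more than 1 gene. At 1427510_at, of lower signal, the range was 7.76 to 8.16 in Gb5ko and 7.55 to 7.94 in Gb5wt arrays, and the difference was 0.19 ± 0.143. That difference was 0.07 without Gb5ko replicate 3 and 0.09 without Gb5wt replicate 5.

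Gnai2, the most widely expressed Gi alpha subunit, found in blood and vessel cells as well as in neurons, differed little at its brighter probe set. That one, 1435652_a_at, read 10.32, 10.27 and 10.11 in Gb5ko arrays, against 10.27, 10.23 and 10.13 in Gb5wt arrays. The groups were intermixed, and the difference was 0.02 ± 0.104 (95% interval -0.21 to 0.26). Its sign turned to -0.02 without Gb5ko replicate 1 and without Gb5wt replicate 6.

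The other Gnai2 probe set, 1419449_a_at, read 8.31, 8.19 and 8.25 in Gb5ko arrays, against 7.75, 8.14 and 8.03 in Gb5wt arrays. All Gb5ko arrays lay above the Gb5wt arrays, by as little as 0.05 at the nearest pair. The difference was 0.28 ± 0.122, just inside an unadjusted p of 0.05 (limma adjusted p = 0.347), and 0.16 without Gb5wt replicate 4. Microglial markers, cells in which Gnai2 is also known to be expressed, had 6 of 8 positive differences, 4 of them at an unadjusted p under 0.05 (8.09% of all probe sets were positive at that level), and 0 passed. The negative differences were those of P2ry12, at -0.20 with every Gb5ko array below the Gb5wt arrays, and C1qa, at -0.08. Summed linear signal of the microglial markers ran from 8407 to 9071 in Gb5ko and from 7413 to 7771 in Gb5wt arrays. Endothelial markers had 1 of 6 positive, with sums from 1629 to 1857 in Gb5ko and from 1651 to 2148 in Gb5wt arrays. The part of these cells in the Gnai2 signal was not tested, and in whole tissue more cells of a type and more RNA per cell cannot be told apart. Gnai2 lies on chromosome 9 like Gnb5, with 566 annotated genes between them. Any part of this position in the Gnai2 signal was not tested.

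Gnai3, the third Gi alpha subunit, had negative differences at both probe sets. At the brighter, 1428645_at, Gb5ko arrays read 7.84, 7.91 and 7.70 and Gb5wt arrays 7.97, 7.87 and 7.96. The groups overlapped, with a difference of -0.11 ± 0.103 (limma adjusted p = 0.633), and -0.05 without Gb5ko replicate 3. The second, 1437225_x_at, read 6.39, 6.72 and 6.54 in Gb5ko arrays, against 7.47, 6.89 and 6.98 in Gb5wt arrays. Every Gb5ko array lay below every Gb5wt array, and Gb5wt replicate 4 stood above the other wild types. Means were 6.55 ± 0.161 in Gb5ko and 7.11 ± 0.312 in Gb5wt arrays (SD, n = 3 each). The difference of -0.56 ± 0.163, 1.48-fold lower, was the largest of the 12 by size and did not pass (unadjusted p = 0.00727, limma adjusted p = 0.236). It was -0.38 without Gb5wt replicate 4, and -0.30 without that array and Gb5ko replicate 1. The suffix x marks a set in which some probes are near-identical to other sequences, so this reading need not be Gnai3 alone.

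**Figure D2:**
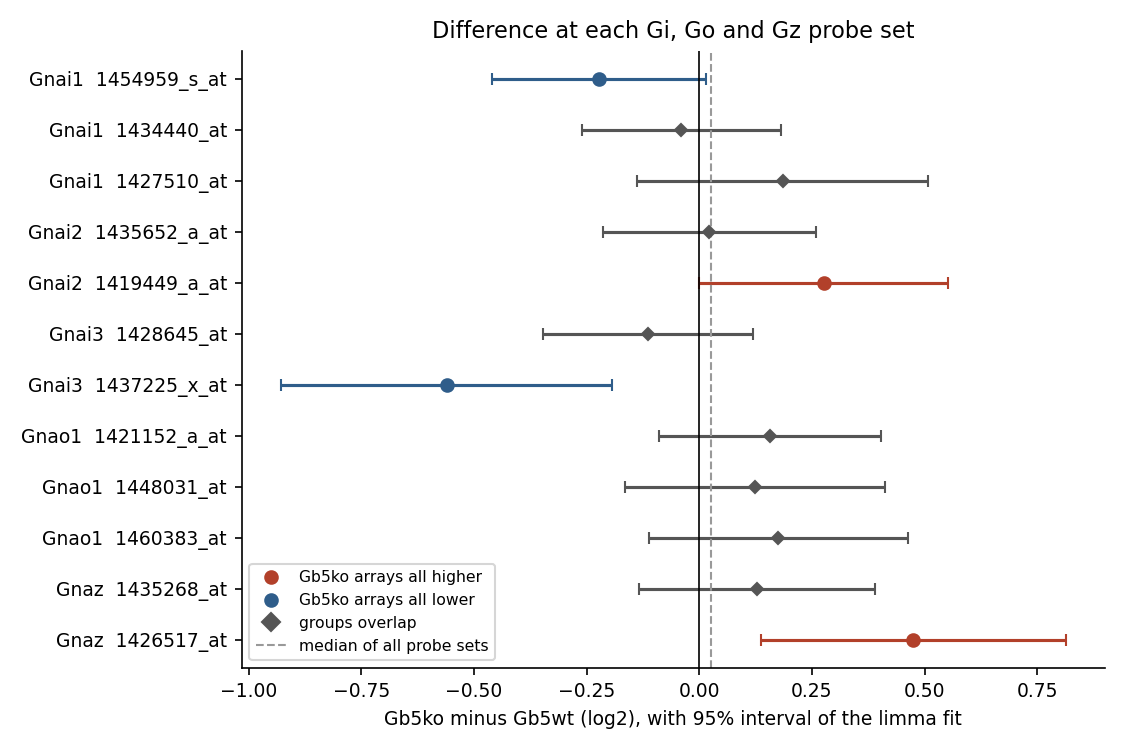
Difference of log2 signal, Gb5ko minus Gb5wt (x axis), at each of the 12 probe sets, with the 95% interval of the limma fit; the dashed line is the median of all probe sets. Intervals of 3 probe sets lie to one side of 0, and those of Gnai2 1419449_a_at and Gnai1 1454959_s_at end close to it.

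The precision of 3 arrays per group sets what these values can show. With the standard errors of these probe sets, a log2 difference of 0.86 to 1.42 in size (1.81- to 2.68-fold) would have been needed to reach the largest p that was called. The 95% intervals are unadjusted, and each is for the signal of 1 probe set. Among the brightest probe sets they ran from -0.46 to 0.02 for Gnai1, -0.21 to 0.26 for Gnai2 and -0.35 to 0.12 for Gnai3. They ran from -0.09 to 0.40 for Gnao1 and -0.13 to 0.39 for Gnaz. Over the 12, the limit farthest from no change was 1.90-fold, at Gnai3 1437225_x_at. These limits do not bound the change of a gene. Differences at Gnaz 1426517_at (0.47), Gnai3 1437225_x_at (-0.56), Gnai2 1419449_a_at (0.28) and Gnai1 1427510_at (0.19) lay outside the interval of the gene's brightest probe set. Residual SDs of the members lay between 0.065 and 0.248, around the median of 0.151 over all probe sets.

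Agreement between probe sets was measured within each array, as the log2 signal of a probe set minus that of the gene's brightest. The change of this quantity (Gb5ko minus Gb5wt) was 0.35 for Gnaz 1426517_at, -0.45 for Gnai3 1437225_x_at, 0.25 for Gnai2 1419449_a_at and 0.18 for Gnai1 1434440_at, and in these 4 of 7 pairs the groups did not overlap. Without Gb5wt replicate 4 it was 0.11 for the Gnai2 pair and -0.29 for the Gnai3 pair. For Gnai1 1427510_at it was 0.41 with overlapping groups. It was -0.03 and 0.02 for the 2 Gnao1 pairs, where single arrays turned the sign. Exact two-sided permutation tests gave p = 0.1 for the 4 separate pairs, the smallest that 3 against 3 arrays allow, and 0.175 after adjustment over the 7. Whether probe sets of a gene differ in their response thus could not be called. How often such pairs separate over the whole array was not computed, and single probe sets separated at 21.5%. With all probe sets of a gene averaged per array, the differences were -0.03 ± 0.098 for Gnai1, 0.15 ± 0.101 for Gnai2, -0.34 ± 0.122 for Gnai3, 0.15 ± 0.107 for Gnao1 and 0.30 ± 0.13 for Gnaz, with limma adjusted p values from 0.28 to 0.926.

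The balance among the 5 subunits was read the same way, as the within-array log2 ratio of the brightest probe sets of 2 genes, for 10 pairs. Levels of different probe sets are not comparable, so only the change of their ratio was read. That change also depends on the probe sets chosen. Relative to Gnao1, Gnai1 was at 0.90, 1.30 and 1.32 in Gb5ko arrays, against 1.50, 1.62 and 1.53 in Gb5wt arrays. Relative to Gnaz it was at 0.62, 1.13 and 1.07 in Gb5ko arrays, against 1.22, 1.33 and 1.34 in Gb5wt arrays. In both, every Gb5ko array lay below the Gb5wt arrays, and Gb5ko replicate 1 lay lowest. The changes were -0.38 and -0.35, and -0.25 and -0.19 without that replicate. With all probe sets of a gene averaged, the changes were -0.18 relative to Gnao1 and -0.33 relative to Gnaz.

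Gnai3 relative to Gnao1 read -3.32, -3.13 and -3.20 in Gb5ko arrays, against -2.98, -2.93 and -2.92 in Gb5wt arrays, a change of -0.27, and -0.22 without Gb5ko replicate 1. The groups did not overlap for 6 of the 10 pairs, all with the ratio of the first gene to the second lower in Gb5ko arrays. These were Gnai1 against Gnai2, Gnao1 and Gnaz, Gnai2 against Gnao1, and Gnai3 against Gnao1 and Gnaz. Each of the 6 had an exact two-sided permutation p of 0.1, the smallest possible, and an adjusted p of 0.167 over the 10 pairs, which share genes. How often ratios of other gene pairs separate on these arrays was not computed. For single probe sets, which are not ratios, the share was 21.5%. A shift of the balance could not be called, because the exact permutation test cannot go below p = 0.1 here. Gnao1 relative to Gnaz changed least, by 0.03, with overlapping groups (exact p = 0.5). The choice of probe set mattered: with gene averages, Gnai1 relative to Gnai3 gave 0.31 where the brightest probe sets gave -0.11, and Gnai2 relative to Gnao1 gave 0.00 in place of -0.13. By gene averages the groups did not overlap for 7 of the 10 pairs, in both directions.

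**Figure D3:**
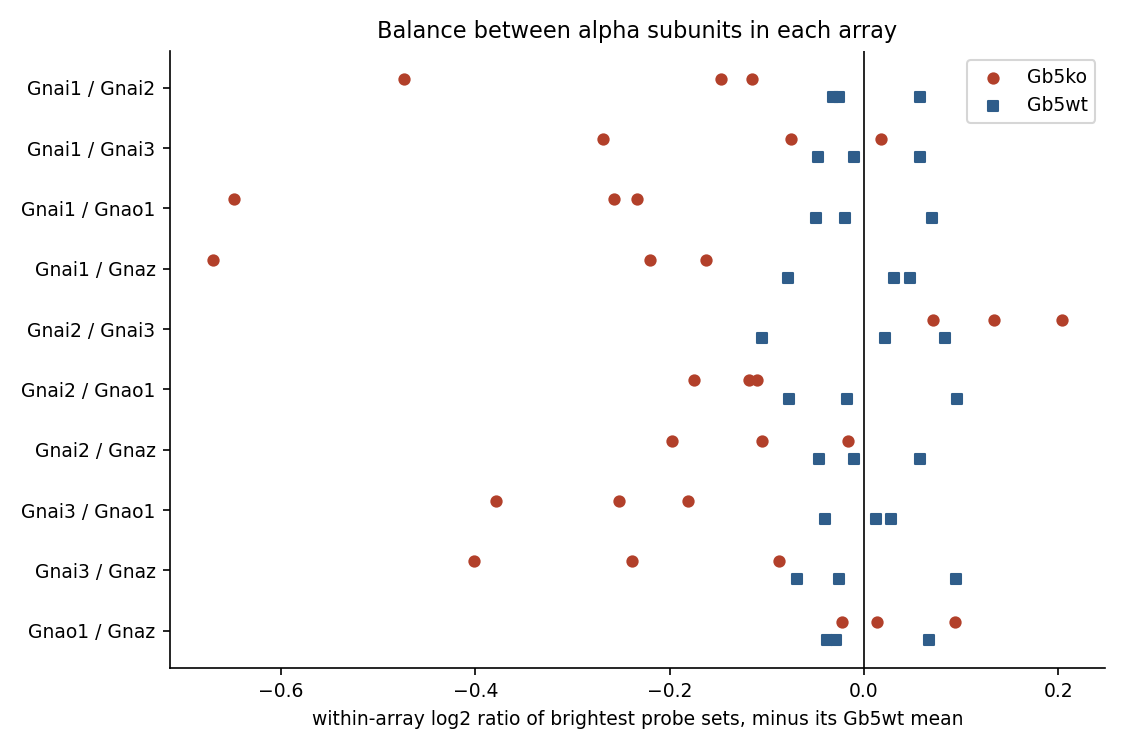
Within-array log2 ratio of the brightest probe sets of 2 genes, set to 0 at its Gb5wt mean (x axis), for the 10 pairs in Gb5ko (circles) and Gb5wt arrays (squares). Ratios of Gnai1 to Gnao1 and Gnai1 to Gnaz lie farthest left in Gb5ko arrays, and Gnao1 to Gnaz lies around 0.

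Gb5ko replicate 1 gave the highest reading of the 6 arrays at 7 of 12 member probe sets and the lowest at 2. Over all probe sets it was highest at 29.6% and lowest at 22.1%, more than any other Gb5ko array. Gb5wt replicate 4, highest at 3 members, was highest at 20.2% of all probe sets and lowest at 22.9%. With these 2 arrays left out together, 0 of 12 members passed in limma, 2 had an unadjusted p under 0.05, and their median difference was 0.05.

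Genes that act on the same cycle gave the wider picture, each read by its brightest probe set. Beside the members, 10 other G alpha genes were measured and 0 passed, with 1 positive at an unadjusted p under 0.05 and a median difference of 0.00 (0.05 over 18193 genes). That gene was Gnat1, the rod transducin of the retina, at 3.80 in Gb5ko and 3.51 in Gb5wt arrays, 0.29 ± 0.105 (limma adjusted p = 0.279) at percentile 23.3 of signal. Gna13, of the G12 class, differed by -0.22 ± 0.119 (adjusted p = 0.419) and Gnal, the olfactory and striatal relative of Gs alpha, by -0.25 ± 0.154 (0.475).

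In the R7 complexes themselves, 1 of 9 genes passed, which was Gnb5. Of the 9 differences 7 were positive, as were 10891 of 18193 over all genes. The catalytic RGS subunits differed by 0.48 ± 0.139 for Rgs6, 0.30 ± 0.11 for Rgs9, 0.24 ± 0.154 for Rgs11 and 0.17 ± 0.111 for Rgs7, with limma adjusted p values of 0.234, 0.281, 0.502 and 0.515. For Rgs6, Rgs9 and Rgs7 every Gb5ko array lay above the Gb5wt arrays, as at 12.5% of all probe sets.

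Among 20 other partners and GTPase activators of Gi, Go and Gz, 0 passed, 4 were positive and 2 negative at an unadjusted p under 0.05 (14.4% of all probe sets reached it), and the groups did not overlap at 9 (21.5% of all probe sets). Gpsm1, which binds GDP-loaded Gi alpha through GoLoco motifs, averaged 10.01 in Gb5ko and 10.35 in Gb5wt arrays, a difference of -0.34 ± 0.099 (limma adjusted p = 0.233). Its relative Gpsm3 averaged 6.40 in Gb5ko and 5.98 in Gb5wt arrays, 0.42 ± 0.129 (0.249). Gprin1, a neurite protein that binds activated Gi, Go and Gz alpha, averaged 9.21 in Gb5ko and 8.74 in Gb5wt arrays, 0.48 ± 0.148 (0.251). Gpsm1 and Gpsm3 thus had opposite signs. The list's median difference was 0.05, as over all genes.

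Lipid anchors hold G alpha subunits at the membrane. Of 6 genes for their myristoylation, palmitoylation and depalmitoylation, 0 passed. Lypla1, a depalmitoylating thioesterase, differed by -0.34 ± 0.123 (limma adjusted p = 0.277), the myristoyltransferase gene Nmt1 by 0.19 ± 0.102 (0.417) and the palmitoyltransferase gene Zdhhc7 by 0.19 ± 0.102 (0.418).

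**Figure D4:**
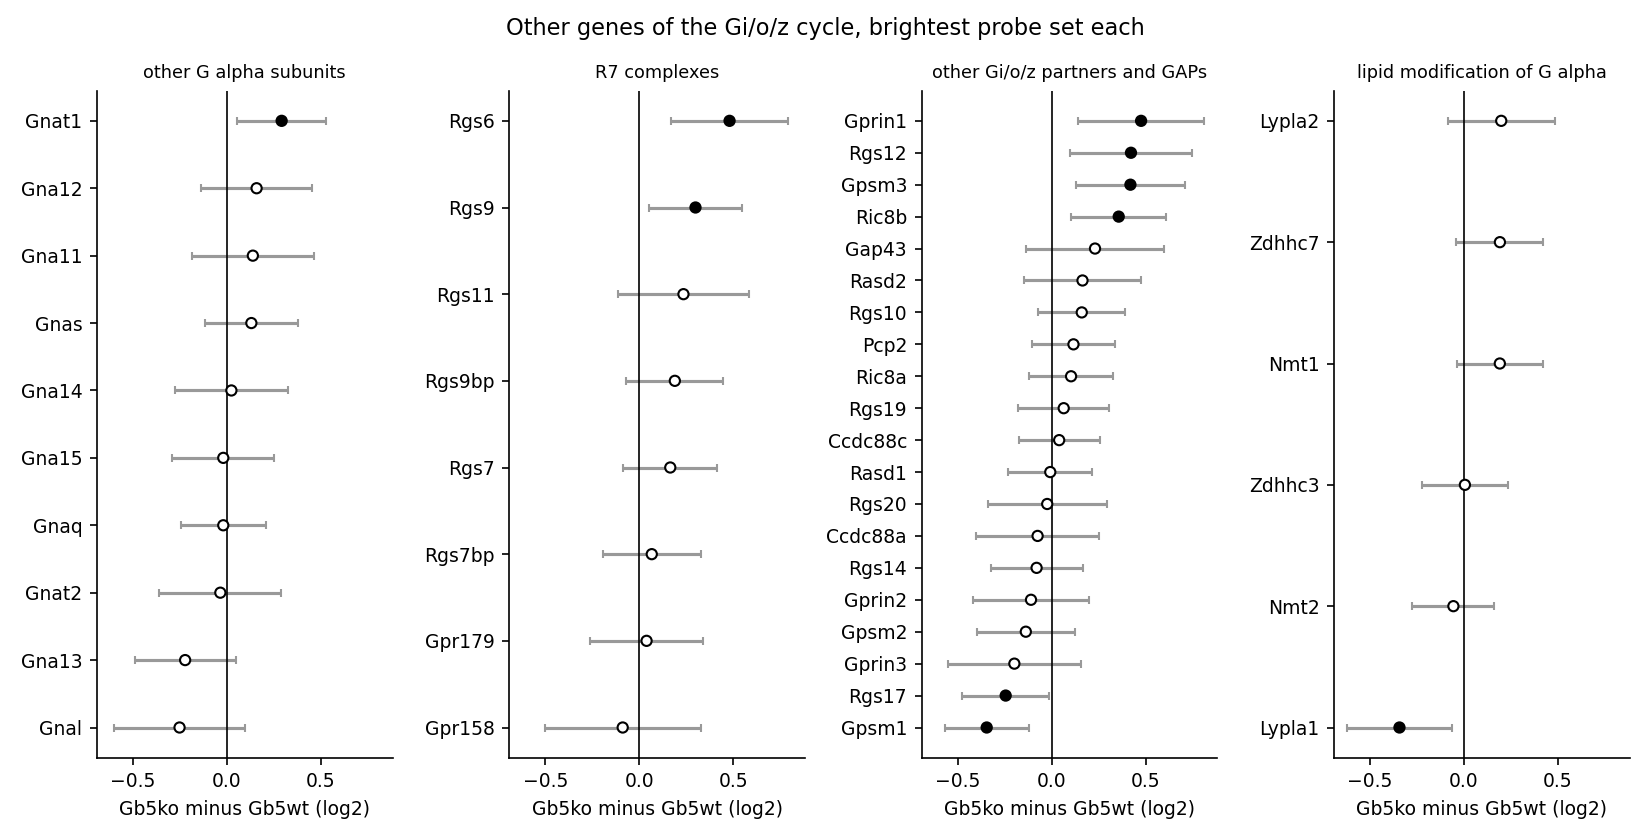
Gb5ko minus Gb5wt difference of log2 signal (x axis) with the 95% interval of the limma fit, for each measured gene of the 4 lists except Gnb5; filled points have an unadjusted p under 0.05. Filled points lie on both sides of 0, and Rgs6 and Gprin1 lie farthest to the right, at 0.48 each.

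Patterns over the 6 arrays were compared with those of 11673 other genes of at least median signal, as a description. The 2 genes most like each member, by Pearson r over 6 arrays, were Cadps and Dcaf12 for Gnai1 (both 0.998), Fnbp1l (0.989) and Klhl23 (0.988) for Gnai2, Rfk (0.991) and S100pbp (0.989) for Gnai3, Mtss2 and Myo16 for Gnao1 (both 0.994), and Nln (0.999) and Kantr (0.997) for Gnaz. Of the genes searched, r was above 0.9 for 712 (6.10%) with Gnai1, 368 (3.15%) with Gnaz, 320 (2.74%) with Gnao1, 84 (0.720%) with Gnai3 and 65 (0.557%) with Gnai2. All points share the 2 genotypes and the deviation of single arrays.

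The promoter table of RefSeq (GRCm38.p6, 250 bases before to 50 after a gene start) held 3 of the 5 genes, and their sequences are shown because they differ in CpG content, which the choice of members did not use. They hold 53 CpG dinucleotides for Gnai1, 42 for Gnao1 and 21 for Gnai3, at percentiles 99.5, 97.0 and 75.2 of 32851 promoters, whose median is 7. GC content was 80.0% for Gnai1, 76.3% for Gnao1 and 59.3% for Gnai3, beside a median of 52.7%. The GC box GGGCGG, searched on both strands, occurred 3 times in Gnai1 and in neither other window, and 35.7% of all promoters held it. Capitals mark CpG dinucleotides, and each sequence runs 5′ to 3′ on the strand of its gene, chr5:18360364-18360663 (minus) for Gnai1, chr8:93810588-93810887 (plus) for Gnao1 and chr3:108146103-108146402 (minus) for Gnai3. The Gnai1 and Gnai3 windows surround the first base of the gene's annotated span, whereas the Gnao1 window surrounds a start inside the span, downstream of its first base. The arrays measured no activity of these windows.
Gnai1: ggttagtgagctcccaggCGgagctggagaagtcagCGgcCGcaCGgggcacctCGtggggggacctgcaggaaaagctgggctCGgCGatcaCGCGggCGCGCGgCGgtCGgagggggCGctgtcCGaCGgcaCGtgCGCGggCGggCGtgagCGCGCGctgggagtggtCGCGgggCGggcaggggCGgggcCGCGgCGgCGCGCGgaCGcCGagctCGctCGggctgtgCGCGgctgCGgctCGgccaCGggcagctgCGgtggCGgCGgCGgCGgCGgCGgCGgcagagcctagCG
Gnao1: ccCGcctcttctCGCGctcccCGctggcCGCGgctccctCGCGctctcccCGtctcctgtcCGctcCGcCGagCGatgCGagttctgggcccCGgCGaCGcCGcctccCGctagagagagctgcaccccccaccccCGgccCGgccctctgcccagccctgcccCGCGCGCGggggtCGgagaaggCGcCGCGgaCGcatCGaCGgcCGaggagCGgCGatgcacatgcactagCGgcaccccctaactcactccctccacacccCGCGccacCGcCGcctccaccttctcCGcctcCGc
Gnai3: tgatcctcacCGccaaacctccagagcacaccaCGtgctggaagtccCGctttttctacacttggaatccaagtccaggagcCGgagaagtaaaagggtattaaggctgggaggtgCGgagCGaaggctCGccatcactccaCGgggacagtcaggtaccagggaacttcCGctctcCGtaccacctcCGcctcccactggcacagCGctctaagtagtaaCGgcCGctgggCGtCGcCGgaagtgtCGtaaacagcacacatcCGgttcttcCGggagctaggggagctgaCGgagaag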

How the data were processed

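The authors deposited a table of log2 values for each probe set in every array. RMA and Partek are named in the submitters' processing notes, without versions. RMA summarises the probes of a set after background correction and normalization, which compresses differences near background. The values were not normalized again, and detection calls were not used here. Depth does not apply to arrays, and their number limits the precision.

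After 64 control probe sets were left out, 45037 entered a moderated linear model in limma (version 3.58.1, R version 4.3.3; lmFit, then eBayes). Tests were two-sided with Benjamini-Hochberg adjustment over all probe sets, called at 0.05. There were 4 residual degrees of freedom and 5.05 from the prior. The model was also run on simulated data with independent noise at each probe set. That noise held no array-wide deviations, so the run cannot show how the model handles them. Gene names came from the platform annotation, where 34945 probe sets had 1 gene, 932 several and 9160 none, and chromosomes from RefSeq. Ratios within an array were compared by exact permutation of the group means.

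Members, lists and tests were chosen with earlier results of these data known. The text names every member probe set, Gnb5, the 4 catalytic R7 genes and up to 3 genes of each list with the smallest p. Neuronal, glial, vascular, cerebellar, pituitary and blood markers were also read. Alternatives covered a filter on dim probe sets, normalization, eBayes settings, array weights, 1 probe set per gene, gene averages, a looser threshold and arrays left out. Whether replicates came from separate animals rests on the series design, so p-values measure the spread between these samples. Figures were drawn with matplotlib 3.10.9.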

Additional observations from a re-analysis of the deposited data

How the results depend on the processing

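No paired analysis was possible because the arrays are numbered 1 to 6 without a repeat. Over 15 alternative fits, 0 of 172 member values passed the limma adjusted threshold, and the smallest adjusted p was 0.156. The sign stayed the same at 11 of 12 probe sets and turned at the brighter Gnai2 probe set, whose difference is near 0. The number of members with an unadjusted p under 0.05, 3 of 12, ran from 2 to 3 with 1 array left out, was between 2 and 4 in the other fits over all probe sets or without dim ones, and was 0 of 5 with 1 probe set per gene, where the 3 probe sets concerned are no longer tested. Differences with 1 array left out ran from 0.30 to 0.57 for Gnaz 1426517_at and from -0.67 to -0.38 for Gnai3 1437225_x_at. Against 12 called probe sets on the whole array, trend and robust eBayes called 23, array weights 27, an adjusted threshold of 0.1 called 44 and the brightest probe set of each gene alone gave 4 among fewer tests; the cause of the first 2 was not tested. Gnb5 kept its call in each of these fits. Leaving out Gb5ko replicate 1 with Gb5wt replicate 4, and Eif2s3y as a covariate, were chosen after the data were seen.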
